A study of Mus musculus with 8 samples.

Results

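The promoter regions of 10 glycolytic enzyme genes were examined for DNA recovered with Flag-tagged HoxB4. The genes were Hk2, Gpi1, Aldoa, Tpi1, Gapdh, Pgk1, Pgam1, Eno1, Pkm and Ldha, a fixed list of enzymes. Their probes were those whose annotation in the array files named the gene, with Pkm written Pkm2 there. From -8000 to 4000 bp of the annotated gene start the list had 278 probes of the 474323 used, and the 10 genes were among 16505 with a value. Hk2, Tpi1 and Gapdh lie on chromosome 6, Gpi1, Aldoa and Ldha on 7, Eno1 on 4, Pkm on 9, Pgam1 on 19 and Pgk1 on X. A further 46 probes naming a member lay more than 4000 bp downstream of its start and were not included. The array annotates them to neighbouring genes.

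HoxB4 is a homeobox transcription factor known for making blood stem and progenitor cells grow on in culture. The cells were mouse blood progenitors grown from embryonic stem cells, and the arrays name the stem cell line B6N-22UTR. Embryoid bodies were grown for 6 days, cells with c-Kit and CD41 were then placed on OP9 bone marrow stroma, and a retrovirus brought in HoxB4 with 3 Flag tags. Cells carrying c-Kit were collected by magnetic sorting at day 12 of the co-culture, per the design text. The signal is therefore that of an overexpressed, tagged protein. OP9 cells and the sorted cells shared the culture, and the cell type was not checked against marker genes here because gene expression was not used.

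The Flag precipitate (Cy5) and the input DNA of the same cells (Cy3) were compared on 2 promoter arrays, each with other probes, so every gene has 1 sample and no replicate. No p-value is given, and n = 1 holds for each value. A Flag precipitate from cells without the tag was not analysed here. Values are log2 of Flag-IP over input, set to a median of 0 on each array. A window is the median of 3 neighbouring probes with starts at most 1000 bp apart, and the highest window of a gene is its summit in this text. A percentile is the rank of a gene among all genes measured. Input signals had a median of 775 on array 1 and 718 on array 2 (linear intensity). On 2615 control spots printed on both arrays the log ratio varied with an SD of 0.29 per spot, which is the only measure of error from more than 1 array. A total of 7 member genes lay on array 1, and Pgk1, Pgam1 and Pkm lay on array 2. Of the 278 probes, 8 were not well above background in both channels and none was saturated.

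Glycolysis breaks glucose down to pyruvate and yields ATP without oxygen, and lactate dehydrogenase turns pyruvate into lactate. The first steps use ATP to prime the sugar and split it, and the later steps from glyceraldehyde-3-phosphate dehydrogenase to pyruvate kinase return ATP. Blood stem cells are known to rely strongly on glycolysis, and Myc and the hypoxia factor Hif1a are known activators of many of these genes.

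The sequences at the starts of these genes are shown first, since HoxB4 binds DNA through a homeodomain whose core site is TAAT. RefSeq promoters in assembly GRCm38.p6 run from 250 bases before to 50 bases after a transcript start, and the 10 genes had 16 of them. Promoters of 1 gene can overlap. Those of 4 genes are printed 5′ to 3′ on the strand of the gene, with the letters of every match in capitals. The motifs searched on both strands were TAAT, TGATTNAT (a joint Pbx and Hox site), CACGTG (the E-box of Myc) and ACGTG (the core of hypoxia response elements, which also lies within CACGTG). Gapdh and Eno1 were among the genes with the highest summits, Ldha stood apart in where its signal lay, and Hk2 had one of the lowest summits.
Gapdh, chr6:125165724-125166023, minus strand: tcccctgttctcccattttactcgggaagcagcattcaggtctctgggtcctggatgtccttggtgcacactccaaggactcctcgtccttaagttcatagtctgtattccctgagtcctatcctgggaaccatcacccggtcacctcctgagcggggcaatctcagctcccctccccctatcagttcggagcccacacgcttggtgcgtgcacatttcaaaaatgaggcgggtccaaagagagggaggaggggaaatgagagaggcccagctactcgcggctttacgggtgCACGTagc
Eno1, most upstream start, chr4:150236458-150236757, plus strand: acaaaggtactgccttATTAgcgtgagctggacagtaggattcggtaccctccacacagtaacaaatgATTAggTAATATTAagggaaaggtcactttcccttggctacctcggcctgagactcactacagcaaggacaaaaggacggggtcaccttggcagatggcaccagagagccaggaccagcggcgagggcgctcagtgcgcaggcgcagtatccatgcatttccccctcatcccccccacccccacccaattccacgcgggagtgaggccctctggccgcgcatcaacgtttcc
Ldha, upstream start, chr7:46845554-46845853, plus strand: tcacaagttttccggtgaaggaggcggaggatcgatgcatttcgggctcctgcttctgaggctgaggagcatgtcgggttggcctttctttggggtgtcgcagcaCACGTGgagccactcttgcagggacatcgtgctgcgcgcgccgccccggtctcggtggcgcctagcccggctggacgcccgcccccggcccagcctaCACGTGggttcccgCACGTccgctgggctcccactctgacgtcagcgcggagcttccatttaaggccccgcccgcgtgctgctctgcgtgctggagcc
Hk2, chr6:82774405-82774704, minus strand: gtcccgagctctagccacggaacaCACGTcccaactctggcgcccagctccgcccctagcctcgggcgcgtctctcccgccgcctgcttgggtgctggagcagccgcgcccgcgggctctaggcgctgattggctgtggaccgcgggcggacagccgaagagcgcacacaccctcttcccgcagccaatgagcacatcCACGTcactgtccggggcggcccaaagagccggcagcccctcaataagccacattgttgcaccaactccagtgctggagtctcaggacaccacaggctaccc

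TAAT was found in 3 of the 16 member promoters, against 58.0% of all 32851 promoters. The member promoters were rich in G and C, from 52.7% to 69% of bases, and among the 13319 promoters within that range 40.6% held TAAT. The Eno1 promoter printed above had 4 matches, the more downstream promoter of Pkm had 3 and the more downstream promoter of Ldha had 1. The more downstream promoters of Eno1 held none. No TAAT was found in the promoter windows of Gapdh, Pgam1, Aldoa, Tpi1, Pgk1, Hk2 or Gpi1. TGATTNAT matched none of the 16, against 3.22% of all promoters. ACGTG was found in 8 of the 16, belonging to 7 genes, against 19.6% of all promoters and 24.4% of those within the same range of base composition. The upstream promoter of Ldha held 2 CACGTG matches, and no other member promoter held one (7.15% of all promoters did). A match is a stretch of letters in this window and does not show that a factor bound there. The summits described below each lay more than 500 bp from the gene start annotated on the array. The sequence under the summits was not searched, so these counts do not tell whether it holds TAAT.

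Of the 10 genes, 8 had a summit of at least 1, against 41.7% of all genes, and 3 had one of at least 2, against 2.93% of all genes. Those 3 were Gapdh, Eno1 and Pgam1, which catalyse steps of the later, ATP-yielding phase. The median summit was 1.56 over the 10 genes and 0.89 over all genes. Only Pgk1 and Pkm had a lowest window at or below -1, against 52.7% of all genes. The count at 2 or above depended on the processing. It fell to 0 of 10 when the trend of log ratio with brightness was removed on each array (1.09% of all genes) and to 1 when windows held 5 probes (1.08% of all genes). With normexp background correction it was 4 (4.53% of all genes), with Aldoa as the fourth. Ranks moved too. With the brightness trend removed, Gapdh stood at the 98.6th percentile, Pgam1 at the 98.2nd and Eno1 at the 97.4th. Aldoa went up from the 84.7th to the 98.6th and Pgk1 from the 63.1st to the 83.8th, while Ldha went down from the 92.7th to the 78.9th and Gpi1 from the 24.1st to the 3.49th.

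**Figure D1:**
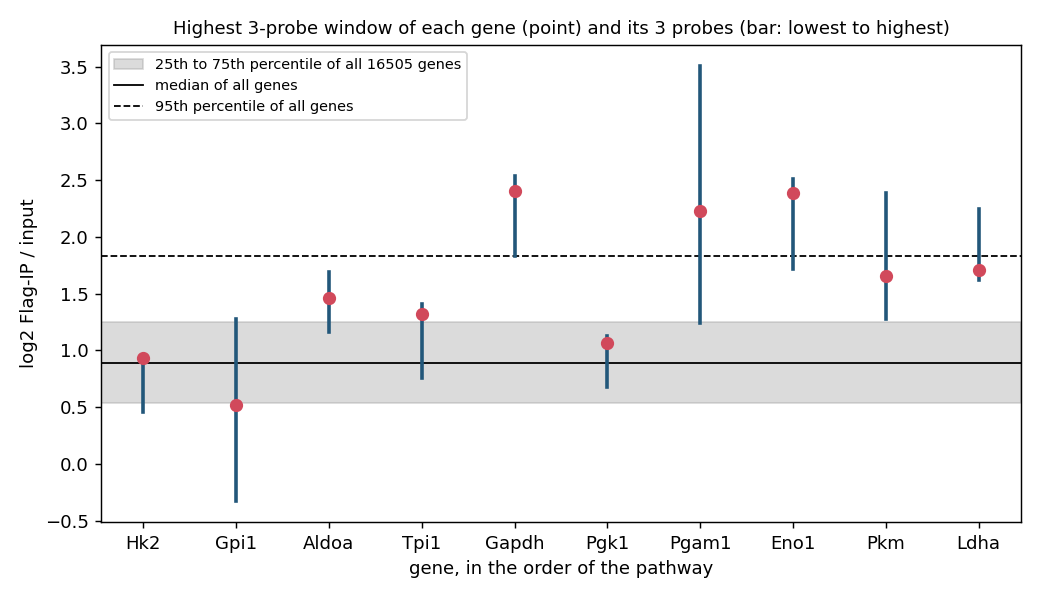
Summit of each gene (point, log2 Flag-IP over input) with the lowest and highest of its 3 probes (bar), in pathway order, from 1 array each. The shaded band runs from the 25th to the 75th percentile of all 16505 genes, and Gapdh, Eno1 and Pgam1 lie above the dashed line at the 95th percentile.

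Among the enzymes of the preparatory phase no summit reached 2, except that of Aldoa with normexp background correction. Hk2 encodes hexokinase 2, which traps glucose in the cell by phosphorylating it. Its 28 probes ran from -1.48 to 1.05 with a median of 0.07. The summit was 0.93 (probes 0.46 to 0.94) at 722 bp inside the gene, at the 52.8th percentile. With normexp it was 1.61, at the 85.9th percentile, so the place of Hk2 depended on the background correction. Gpi1, glucose-6-phosphate isomerase, which turns glucose-6-phosphate into fructose-6-phosphate, was covered by only 4 probes, from 1444 to 2391 bp inside the gene. They read -0.21, -0.32, 0.52 and 1.27 in that order along the gene. The start of Gpi1 was not covered, and its summit of 0.52 at the 24.1st percentile comes from 2 windows. It changed sign, to -0.068, when the brightness trend was removed, and was 1.15 with normexp.

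Aldoa encodes aldolase A, which splits fructose-1,6-bisphosphate into 2 trioses. Its 39 probes ran from -0.84 to 2.69 with a median of 0.57. The summit was 1.46 (1.16 to 1.69) at 3350 bp inside the gene, at the 84.7th percentile. It was 2.23 with normexp (97.8th percentile) and 1.91 with the brightness trend removed, the highest of the 10 there. From 1031 to 3652 bp, 10 probes in a row read 0.5 or more, a length at the 97.2nd percentile. The highest single probe, at 1598 bp, had a Flag-IP signal of 10691 over an input of 1590. A separate rise lay far upstream, with 2.30 at -4269 bp and 2.06 at -3720 bp, between which probes fell to -0.14. The probe at -259 bp was very bright in both channels, with an input of 70534 and a Flag-IP signal of 48838, and read -0.59. The other probes within 500 bp of the start read 0.99 at -396 bp, 1.27 at 230 bp and -0.05 at 391 bp.

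Tpi1, triosephosphate isomerase, which interconverts the trioses made by aldolase, was covered from -479 to 2998 bp by 18 probes. They ran from -1.08 to 2.11 with a median of 0.73, and 88.9% of them were above 0. The summit of 1.32 (0.76 to 1.41) lay at 2370 bp, at the 78.2nd percentile. The highest and the lowest probe lay close together, at 688 bp (2.11) and 969 bp (-1.08). The probe at 969 bp was far brighter than its neighbours in both channels, with an input of 32251 and a Flag-IP signal of 15890. Several glycolytic genes, Gapdh foremost, are known to have processed pseudogene copies, and a bright probe may take up DNA from more than 1 place. The part of such copies was not tested. Over the stretch 500 to 2500 bp inside the gene, the median input was high for Aldoa (1557, 97.6th percentile) and Tpi1 (1470, 96.7th percentile). Those 2 genes were bright in both channels there, and Eno1 followed with an input of 1285 (93.1st percentile). Over all probes of the gene, the input stood at the 67.7th percentile for Aldoa and the 43.5th for Tpi1.

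The 3 highest summits lay in the later phase under the processing used for the values given here. Gapdh, the dehydrogenase that makes 1,3-bisphosphoglycerate and NADH, had 27 probes from -0.40 to 2.54, with a median of 1.09 and 96.3% above 0. Far upstream lay a separate stretch of signal, with 1.04, 1.15, 0.88, 1.19, 0.45 and 1.18 from -2128 to -1402 bp. The probes on either side of it read 0.005 at -2329 bp and -0.40 at -1204 bp. The mean of the 12 probes from -2329 to -521 bp was 0.57 ± 0.52, at the 89.2nd percentile. Nearer the start the values went from 0.18 at -700 bp through 0.53 at -521 bp to 1.09, 0.97 and 0.99 at -348, -245 and -131 bp. They rose further through 1.16 at 111 bp and 2.01 at 801 bp to 2.54 at 1107 bp and 2.40 at 1321 bp. Beyond, they were 0.83 at 1714 bp, 0.85 at 1946 bp and 1.60 at 2051 bp. In all, 16 neighbouring probes from -521 to 2051 bp read 0.5 or more, a length at the 99.7th percentile. The summit of 2.40 (1.83 to 2.54) was at the 99.3rd percentile and the highest of the 10, just above Eno1. With normexp it was 2.16, below Eno1 (2.61), Pgam1 (2.52) and Aldoa (2.23), and with the brightness trend removed it was 1.90, level with Aldoa. At the highest probe the Flag-IP signal was 3830 over an input of 634. That input was below the array median, so this probe was not bright in the input. Over all its probes Gapdh was bright, with a median input of 1204 at the 96.4th percentile.

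Pgk1 encodes phosphoglycerate kinase, the first enzyme of the pathway to make ATP, and lies on the X chromosome. It was low upstream and higher from the start on. Its 31 probes ran from -2.77 to 1.35 with a median of 0.20. Of the 8 probes from 2500 to 500 bp upstream the mean was -0.91 ± 1.02 (SD over probes), and within 500 bp of the start it was 0.96 ± 0.37 (3 probes). The summit of 1.06 (0.68 to 1.13) at 2124 bp was at the 63.1st percentile. The lowest probe, at -2306 bp, had an input of 521 and a Flag-IP signal of 80, and the gene as a whole was dim, with a median input of 466 at the 5.07th percentile. With normexp background correction no member had a window at or below -1 (6.66% of all genes did).

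Pgam1, phosphoglycerate mutase 1, moves the phosphate of 3-phosphoglycerate to the next carbon. Upstream its probes were low, with -0.76, -0.96, -0.41 and -0.38 from -2231 to -1056 bp, and the probe at -21 bp read -0.35. Inside the gene every probe was high, beginning with 0.98 at 336 bp and 1.49 at 490 bp. All 12 probes from 336 to 2504 bp read 0.98 or more. The summit of 2.23 (1.24 to 3.50) lay at 2012 bp, at the 98.7th percentile. It holds the highest probe of all 10 genes, 3.50 at 2287 bp, with a Flag-IP signal of 31364 over an input of 2637. The next probe, at 2504 bp, read 1.23, so the peak of 3.50 rests on 1 probe and its neighbour at 2012 bp (2.23). With 5-probe windows the summit was 1.55.

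Eno1, enolase 1, makes phosphoenolpyruvate. Its 29 probes ran from -0.99 to 2.51 with a median of 0.88. Around the start the values climbed in order, from 0.66 at -127 bp through 1.27 at 109 bp, 1.29 at 285 bp and 1.72 at 432 bp to 2.51 at 617 bp. They then fell through 2.38 at 738 bp and 1.87 at 953 bp to 1.04 at 1372 bp. This gave a broad peak of 11 probes at or above 0.5, from -728 to 1372 bp. The next probe read 0.25 at 1479 bp. Beyond it the values were high again to the end of coverage, with 1.32, 1.28, 1.24 and 0.96 at 1730, 1951, 2178 and 2331 bp. The summit was 2.38 (1.72 to 2.51), at the 99.2nd percentile. A lesser rise to 1.49 lay at -2411 bp.

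Pkm encodes the muscle-type pyruvate kinase, which makes pyruvate and ATP and whose M2 form is the one of proliferating cells. Its 39 probes ran from -1.73 to 2.39 with a median of 0.93. The 3 most distant, from -5337 to -4224 bp, read -1.61, -1.73 and -1.11. From -3283 to -1759 bp, 9 probes in a row read 0.5 or more. The mean 2500 to 500 bp upstream was 0.96 ± 0.60 (11 probes), at the 97.1st percentile, so Pkm was high on both sides of its start. The summit of 1.66 (1.28 to 2.39) lay at 1008 bp, at the 91.5th percentile, and the 6 probes from 1008 to 1788 bp all read at least 1.37.

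Ldha, lactate dehydrogenase A, turns pyruvate into lactate and restores NAD. It was the one member whose summit lay upstream of the start that the array annotation takes from RefSeq. The summit of 1.71 (1.62 to 2.25) lay at -716 bp, at the 92.7th percentile. The 5 probes past the start fell steadily, from 0.14 at 92 bp to -0.36, -0.38, -0.68 and -1.52 at 1026 bp. The same annotation gives a cDNA start 1325 bp farther upstream. Measured from there, the summit lay 609 bp inside the gene, and the mean within 500 bp of the start was 1.06 ± 0.45 (5 probes), against 0.49 ± 0.97 (5 probes) from the RefSeq start. RefSeq in GRCm38.p6 also has an upstream start, the promoter printed above with 2 CACGTG matches. For the other 8 members with a cDNA distance, that start lay 12 to 265 bp downstream of the RefSeq one. Their summits then lay 605 to 3297 bp inside the gene, and only the mean near the start of Tpi1 changed much, to 1.17 ± 0.64 (4 probes). The choice of the cDNA start for Ldha was made after the position of the signal was seen.

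**Figure D2:**
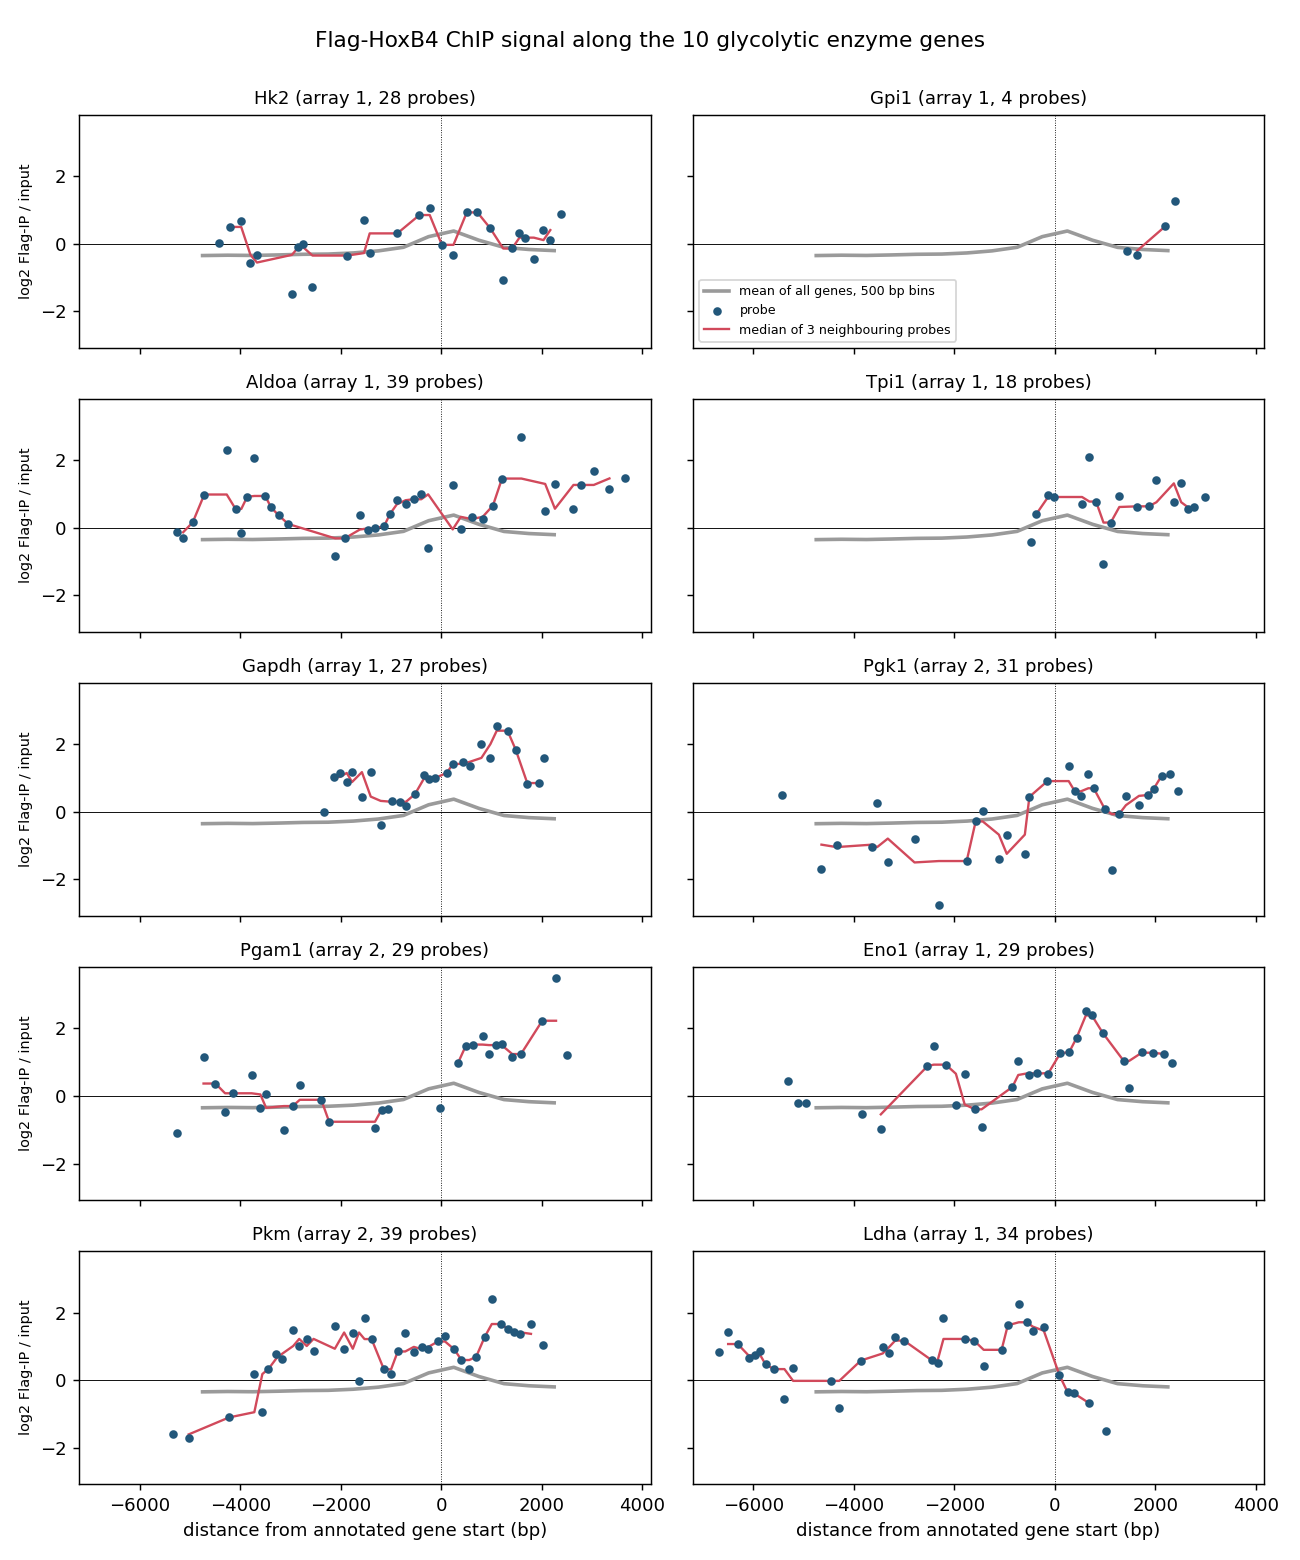
Log2 Flag-IP over input of each probe (blue points) against distance from the annotated gene start in bp, for the 10 genes, with the median of 3 neighbouring probes (red) and the mean of all genes in 500 bp bins (grey). Gapdh, Eno1 and Pgam1 rise past the start where the grey line falls, Ldha falls past the start, and Gpi1 has only 4 probes.

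Near the start the members ranked lower among all genes than the strongest of them did inside the gene. The mean within 500 bp of the start was above 0 in all 9 members with probes there, and above the median of all genes (0.33). It was 1.19 ± 0.22 for Gapdh (6 probes), 1.12 ± 0.45 for Eno1 (5), 0.98 ± 0.24 for Pkm (6) and 0.96 ± 0.37 for Pgk1 (3). Next came Pgam1 with 0.70 ± 0.95 (3 probes), Ldha with 0.49, Tpi1 with 0.46 ± 0.65 (4), Aldoa with 0.41 ± 0.87 (4) and Hk2 with 0.39 ± 0.67 (4). Neighbours in this order differed by less than the SD over their probes. None of the 9 was above the 95th percentile. These means moved with the processing. With normexp Tpi1 turned negative, to -0.16, Pgk1 fell to 0.32 and Hk2 was 0.70, and Pgk1 and Ldha (0.41) were then below the median of all genes (0.48). With the brightness trend removed Pgk1 was 1.35, Tpi1 1.02, Eno1 0.69, Pgam1 0.39 and Hk2 0.17, the last below the median of all genes (0.20). Over 1000 bp on each side Pgk1 was 0.38, Pgam1 1.11 and Ldha 0.82, and Tpi1 was 0.76 with only probes well above background.

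Between 500 and 2500 bp inside the gene the spread between members was wider. The mean was 1.75 ± 0.74 for Pgam1 (9 probes, 99.97th percentile), 1.67 ± 0.60 for Gapdh (9 probes, 99.9th percentile), 1.43 ± 0.72 for Eno1 (9 probes, 99.7th percentile) and 1.33 ± 0.57 for Pkm (10 probes, 99.5th percentile). Aldoa followed with 1.03 ± 0.87 (7 probes, 97.8th percentile) and Tpi1 with 0.70 ± 0.82 (10 probes, 91.8th percentile). Pgk1 (0.40 ± 0.74, 13 probes), Gpi1 (0.32 ± 0.74, 4 probes) and Hk2 (0.23 ± 0.62, 11 probes) were lower, between the 67.5th and the 78.7th percentile. Ldha was below the median, at -1.10 with only 2 probes, but at 0.47 ± 1.31 (9 probes) when measured from its cDNA start. The SDs are over probes of 1 array and are not replicate errors. Over all settings tried for this stretch Pgam1, Gapdh, Eno1 and Pkm stayed at or above the 98.8th percentile, but their order changed. With normexp Aldoa (1.45, 99.6th percentile) passed Pkm (1.23), and Eno1 (1.65) was level with Gapdh (1.63). With the brightness trend removed Eno1 was 0.92, below Pkm (1.02), while Aldoa was 0.57 (91.1st percentile) and Tpi1 0.41 (82.9th percentile). The mean of Ldha was -0.44 with normexp, and that of Gpi1 was 0.49 with only probes well above background.

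Summits lay 500 bp or more inside the gene in 9 of the 10, Ldha being the exception, against 30.7% of all genes. A summit within 500 bp of the start, found in 36.9% of all genes, occurred in 0 of the 10. The probes of Gpi1 all lie farther inside than that, so its place was fixed, and without it the counts are 8 and 0 of 9. In all 7 genes with at least 3 probes on each side, the mean inside was above the mean 2500 to 500 bp upstream, against 56.5% of all genes. With normexp it was 6 of 7. Ldha was left out with only 2 probes inside, and it went the other way, -1.10 inside against 1.22 upstream (10 probes). From its cDNA start it was also lower inside, 0.47 (9 probes) against 1.02 upstream (7 probes). Among the 7 genes kept, the difference was at least 1 in 4, against 8.65% of all genes. These were Pgam1 (2.27), Pgk1 (1.32), Gapdh (1.10) and Eno1 (1.05). Pgk1 reached this through a low upstream side, and the other 3 through a high inside. The mean over all genes peaked at 0.38 in the first 500 bp inside and fell to -0.20 from 2000 to 2500 bp. The mean over the members in successive 500 bp bins from the start was 0.77, 0.87, 0.49, 0.93 and 1.21, each from 8 to 10 genes. The genes differed between bins, so these means do not follow 1 set of genes. Ldha read -0.20, -0.68 and -1.52 in the bins from the start to 1500 bp. It had no probe from 1500 bp on, where the mean over the members was higher. Gpi1 had no probe before 1000 bp.

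**Figure D3:**
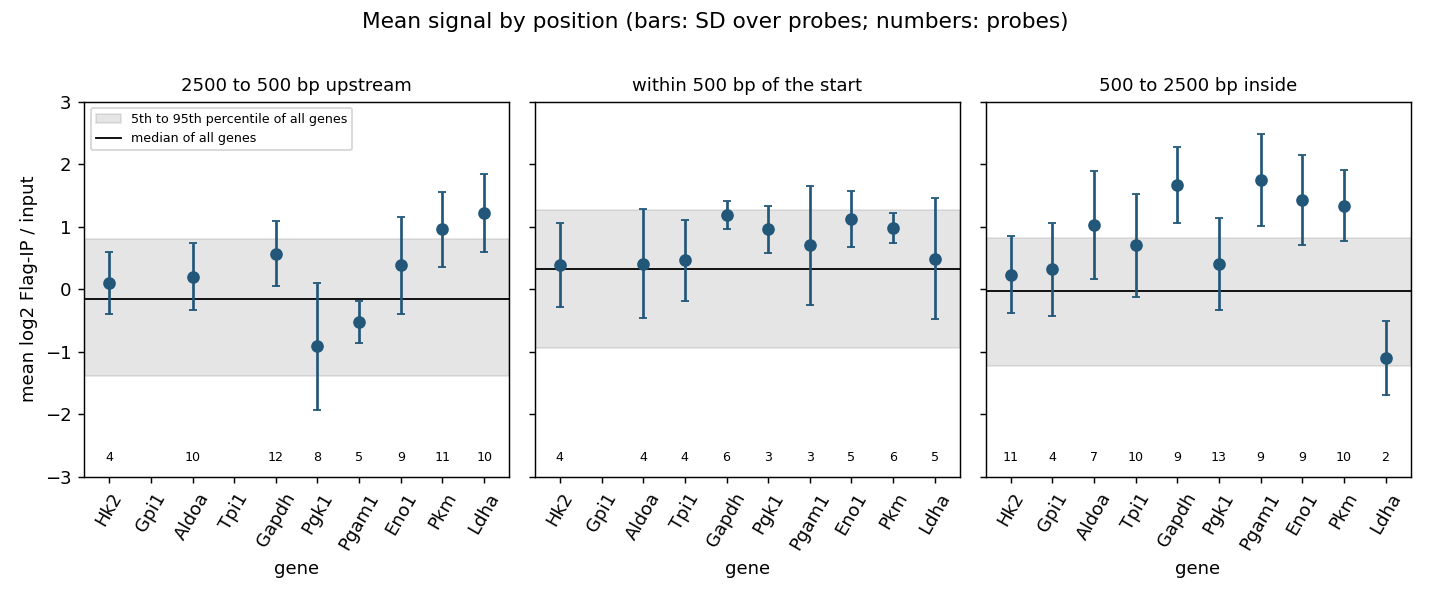
Mean log2 Flag-IP over input of each gene in 3 stretches around the start, with the SD over probes (bars) and the number of probes (below). The line is the median and the band the 5th to 95th percentile of all genes; inside the gene Pgam1, Gapdh, Eno1, Pkm and Aldoa lie above the band.

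The signal of the other genes of the pathway was lower inside the gene. Of 55 listed, 49 were measured; 29 had a summit of at least 1 and none had one of at least 2. Their median summit was 1.28 and their median inside the gene 0.20, against 0.86 for the 10 members and -0.02 for all genes. A summit of at least 1 was found in 41.7% of all genes. Among the isozymes and other glycolytic enzymes, 6 of 17 reached it, and the mean inside was between -0.60 and 0.45 in each. Among the carriers of glucose and lactate it was 3 of 6, among the regulators of flux 8 of 10, and among the enzymes of gluconeogenesis 2 of 4. All 6 genes of the pentose phosphate branch reached 1, as did 4 of 6 transcription factors known to act on the pathway.

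The 5 highest summits among them belonged to Myc, Mycn, G6pdx, Pfkfb1 and Pfkfb3. Myc, a transcription factor that drives growth and glycolysis, had a summit of 1.95 (0.99 to 2.20) at 1180 bp and a mean inside of 1.28 ± 0.57 (11 probes). Mycn, its paralog, had 1.91 (-0.05 to 2.67) at 2181 bp and a mean inside of 1.13 ± 0.89 (10 probes). These 2 were the only genes of the 49 with a mean inside above 1. G6pdx, glucose-6-phosphate dehydrogenase, the first enzyme of the pentose phosphate branch, reached 1.82 (1.44 to 2.99) at 3184 bp. Pfkfb1 and Pfkfb3, which set the level of fructose-2,6-bisphosphate, reached 1.78 (1.06 to 2.07) at -1199 bp and 1.72 (0.85 to 1.95) at -66 bp, outside the body of the gene.

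Among the lowest were isozymes of the members in other tissues. Ldhc, the lactate dehydrogenase of testis, had a summit of -0.21, from only 9 windows (14 probes). Its mean in the upstream stretch used for the members was 0.60, above that summit. Gapdhs, the glyceraldehyde-3-phosphate dehydrogenase of sperm, had a summit of 0.19, from 22 windows. Their counterparts among the 10 had summits of 1.71 (Ldha, 32 windows) and 2.40 (Gapdh, 25 windows). A summit is the highest of the windows of a gene, so it can depend on their number. Ldhc and Ldha differ widely in that number, and its part in their contrast was not tested.

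**Figure D4:**
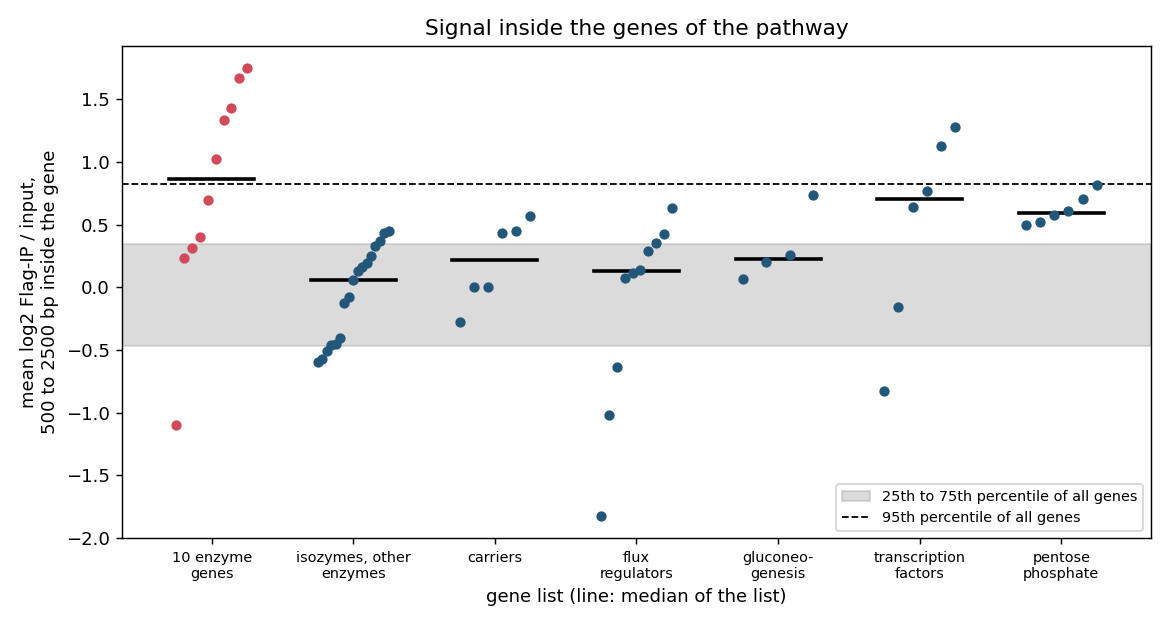
Mean log2 Flag-IP over input 500 to 2500 bp inside each gene, for the 10 enzyme genes (red) and 6 lists of other genes of the pathway (blue), with the median of each list (black line). The shaded band runs from the 25th to the 75th percentile of all genes and the dashed line is the 95th; Myc and Mycn are the 2 blue points above it.

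For comparison, 82 cytosolic ribosomal protein genes and 79 nuclear genes of oxidative phosphorylation were measured in the same way. Summits of at least 2 were found in 10 of the 82 and in 2 of the 79, against 3 of the 10 glycolytic genes and 2.93% of all genes. The share of the oxidative phosphorylation genes, 2.53%, was close to that of all genes. Median summits were 1.42 and 1.10, against 1.56. Within 500 bp of the start the medians were 0.88 and 0.74, both above the 0.70 of the glycolytic genes. Inside the gene they were 0.51 and 0.01, below the 0.86 of the glycolytic genes. No test of these differences is possible with 1 sample, and the lists were chosen with these data known.

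The genes whose profile was most like the mean profile of the 10 were Baiap2, Omp and Plec. Likeness was the root mean square difference over 15 bins of 500 bp from -5000 to 2500 bp, taken over 2468 genes with every bin filled. It was 0.31 for Baiap2, 0.32 for Omp and 0.35 for Plec, against a median of 0.84. Their summits were 1.76, 1.11 and 1.75. The mean profile rests on 4 to 10 members per bin, and the members differed widely, for example from -2.77 to 1.60 between -2500 and -2000 bp. How near each member lies to this mean was not tested, so likeness to it is not likeness to any 1 member.

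**Figure D5:**
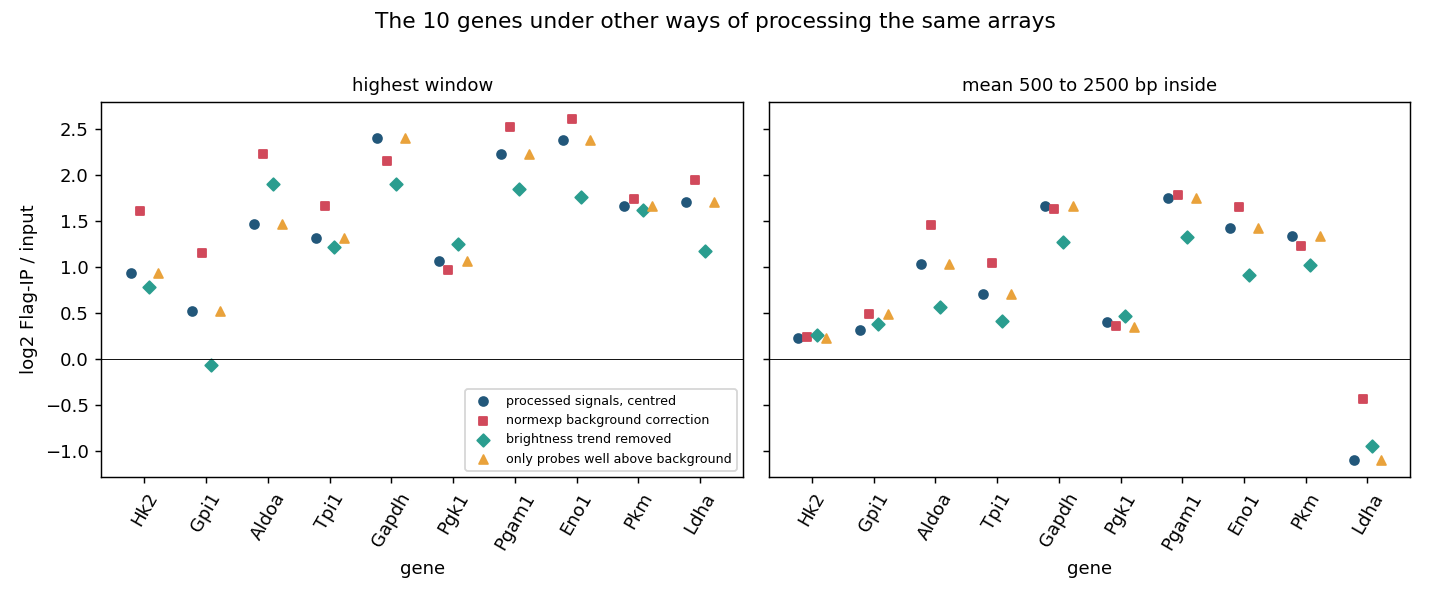
Summit (left) and mean 500 to 2500 bp inside the gene (right) of each of the 10 genes, in log2 Flag-IP over input, under 4 ways of processing the same arrays. Gapdh, Pgam1, Eno1 and Pkm stay above 0.9 inside the gene in all 4, and the summit of Gpi1 falls to -0.068 with the brightness trend removed.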

How the data were processed

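DNA from the Flag precipitate (Cy5) and the input (Cy3) was amplified with T7 RNA polymerase and hybridised to 2 Agilent promoter arrays, per the labels' protocols. The intensities are the authors' deposited processed signals of Agilent Feature Extraction 10.1.1.1, with background subtracted, spatial trends removed and a linear dye normalization, per the file headers. The deposited log10 ratio of the same files and the authors' deposited value table on the log10 scale served as alternatives, as did the deposited mean and background intensities. The genome build behind the probe positions is not given in the sources used. Distances to the gene start are those of the deposited annotation.

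The log2 ratio of Flag-IP to input was taken with Python 3.11.15 (numpy 2.4.6, pandas 2.3.3) and centred on each array's median, with no loess or quantile step, leaving out control spots and 19 and 38 outlier probes. Gene names were updated through RefSeq GRCm38.p6, used for names and promoter sequences. An accession settled 16230 of the 16908 symbols, the symbol itself 354 and an older name 188, while 136 stayed as annotated. Probes named LOC14433 and LOC380687 on the array carry the accession of Gapdh and were counted as Gapdh. The window code was tried on simulated probes with planted regions and independent noise. Real neighbouring probes were correlated (r of 0.58 on array 1 and 0.56 on array 2), so that trial gives no error rate for these data. Alternatives were normexp (limma 3.58.1, R 4.3.3, offset 50), the deposited ratios, no centring, removal of the brightness trend (running median of 5001 probes), only probes well above background, windows of 5 probes, and 1000 bp around the start.

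The members and lists were chosen with earlier results of these data known. All 10 members are named, with the pathway genes of a summit of at least 2 or otherwise the 5 highest, the 3 lowest, and the 3 genes of most similar profile. Others were singled out after their values were seen. A gene that the rule would name is not reported here. The 6 expression arrays (MigR1, HoxB4 and iHoxB4) were not used, since no table pairing their probe sets with genes was used here. Expression and cell type markers were therefore not tested, although the design had planned it.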

Additional observations from a re-analysis of the deposited data

How the results depend on the processing

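With 1 array per probe there is no replicate to leave out. No paired analysis was possible because each promoter gene has 1 sample and the expression arrays, which carry replicate numbers, were not tested. The median summit of the members lay between 1.44 and 1.84 over all settings, against 0.69 to 1.01 for all genes. Gpi1 had no value with 5-probe windows. The median near the start lay between 0.69 and 0.82. For all genes it was 0.20 to 0.48 under the settings where it was taken. With normexp it was 0.70 for the members against 0.48 for all genes. The count of summits of at least 2 was 0 with the brightness trend removed and 1 with 5-probe windows, against 3 otherwise or 4 with normexp. The count of lowest windows at or below -1 was 0 with normexp (6.66% of all genes) and 0 with the brightness trend removed (28.0% of all genes). It was 2 under the processing used for the values given here (52.7% of all genes). The other 31 of 35 recomputed counts and medians kept their side. Single values changed sign in 2 cases, the summit of Gpi1 (-0.068, brightness trend removed) and the mean near the start of Tpi1 (-0.16, normexp). The cause was not tested. Means inside the gene were recomputed under settings chosen after seeing the data. The brightness trend mattered most, moving 16 single values by more than the SD between control spots, and normexp moved 11. Dim probes limit Pgk1, where 3 of 31 were not well above background, and 4 probes limit Gpi1. Probe spread within a gene measures neither replicate nor sample error.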

Other observations

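Probes that name a member but lie more than 4000 bp downstream of its start were set aside, and the array annotates them to a neighbouring gene. The 11 probes from 4039 to 6600 bp past the start of Aldoa, annotated to Ppp4c, had a median log2 ratio of 0.42 (-0.56 to 1.11). For Gpi1, the 12 probes from 28146 to 33583 bp, annotated to Pdcd2l, had a median of -0.26 (-1.64 to 0.80). The 7 probes from 8826 to 14005 bp past the start of Ldha, annotated to Ldhc, had a median of -0.38 (-2.93 to 0.96). The 16 probes from 5644 to 10619 bp past the start of Tpi1, annotated to Spsb2, had a median of 0.65 (-0.97 to 2.09).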
